A study of Mus musculus with 2 samples.

Results

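Amino acid transporters are the solute carriers that move amino acids and related molecules across membranes. They were taken here as every probe whose gene symbol on the array belonged to the Slc1a, Slc3a, Slc6a, Slc7a, Slc36a, Slc38a or Slc43a series. The choice gave 49 genes with 67 probes, of 18120 gene symbols and 25697 probes on the array. One of the 49, Slc7a6os, is the gene on the strand opposite Slc7a6 and is not itself known as a carrier; it is kept because its symbol fits.

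The samples were skin wounds of C57BL6 mice, a Black 6 inbred strain, kept on a low calcium diet and wounded at 3 months of age. In the knockout, both alleles of beta-catenin (Ctnnb1), the adhesion protein and Wnt pathway partner, were floxed. Cre was driven by the keratin 14 (K14) promoter. The gene is thus removed in K14-expressing keratinocytes and their descendants, and not in the other cells of the wound. The control was the floxed littermate without Cre. Each mouse had 2 full-thickness back wounds of 6 mm, and tissue was taken 3 days later with an 8-mm punch, so wound bed, wound edge and adjoining skin were measured together. The series' design text says that each sample held RNA of 3 mice and gives n = 3, and the files used here hold 1 Illumina bead array per group, so no difference below has a replicate check, an error or a p-value.

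Most of these carriers work by exchange or by coupling to sodium or protons. Slc3a2 (CD98, 4F2 heavy chain) is a glycoprotein that carries light chains of the Slc7a series to the cell surface. Among these light chains, Slc7a5 and Slc7a8 exchange large neutral amino acids and Slc7a11 imports cystine, the precursor of cysteine for glutathione. In proliferating cells, leucine brought in by Slc7a5 is known to activate the growth kinase complex mTORC1, and amino acid shortage induces several carriers, Slc7a11, Slc7a5 and Slc38a2 among them, through the transcription factor ATF4. ATF4 and its C/EBP partners bind a composite element that includes the letters TGATGCAA.

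These letters were searched on both strands in the 250 bases before the annotated start in RefSeq's promoter table of mouse GRCm38.p6, in which 31 of the 49 genes had an entry. They were present in 2 of the 51 windows of these genes (3.92%), 1 each of Slc7a11 and Slc7a7, and in 0.791% of all 32851 promoter windows of this length. Printed below, each 5′ to 3′ on the strand of the gene and with the letters in capitals, are the windows of Slc7a11 (chr3:50443614-50443863, minus strand), of the Slc7a7 start that has them (chr14:54417703-54417952, minus strand) and of Slc38a2 (chr15:96699729-96699978, minus strand), which does not. Slc7a11 and Slc38a2 are shown because they had 2 of the wider differences among the brighter probes, and Slc7a7 because it is the other holder of the letters.
Slc7a11: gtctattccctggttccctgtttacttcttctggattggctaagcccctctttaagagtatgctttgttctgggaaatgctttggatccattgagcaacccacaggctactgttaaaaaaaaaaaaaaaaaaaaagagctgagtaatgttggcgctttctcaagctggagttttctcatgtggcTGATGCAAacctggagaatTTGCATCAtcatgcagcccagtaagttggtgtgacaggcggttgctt
Slc7a7: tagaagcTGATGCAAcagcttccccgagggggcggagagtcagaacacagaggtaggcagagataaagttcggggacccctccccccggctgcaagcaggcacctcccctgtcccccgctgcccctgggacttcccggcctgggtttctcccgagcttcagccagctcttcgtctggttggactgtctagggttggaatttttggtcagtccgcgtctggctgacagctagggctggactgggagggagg
Slc38a2: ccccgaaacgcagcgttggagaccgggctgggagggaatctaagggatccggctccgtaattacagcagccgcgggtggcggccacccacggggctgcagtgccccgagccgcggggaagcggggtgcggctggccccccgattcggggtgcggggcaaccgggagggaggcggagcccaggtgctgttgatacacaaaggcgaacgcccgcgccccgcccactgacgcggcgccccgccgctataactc
In Slc7a11 the letters stood once on each strand, 66 to 59 and 47 to 40 bases before the start, without overlap. In Slc7a7 they stood 243 to 236 bases before the start. A match describes letters only, and their absence from a window says nothing about the factor.

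Of the 67 probes, 30 (44.8%) were detected on at least 1 array, against 50.4% of all probes. They measured 27 genes, and 26 of the 30 probes were detected on both arrays. Detected means that fewer than 1% of the negative control beads were as bright, which corresponds to a raw intensity of 177.9 in the knockout and 181.8 in the control. The members nearest these limits were Slc36a2 (180.0) inside and Slc6a2 (176.7, probe 2) outside in the knockout, and Slc7a3 (188.2) inside and Slc7a6os (181.3) outside in the control. Raw member intensities reached 8282.7 in the knockout and 9469.3 in the control, and only 10 detected probes, of 9 genes, were over 2 times the limit on both arrays. Below, intensities are normalized unless called raw, with the background subtracted, and the folds are knockout over control on the log2 scale.

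**Figure D1:**
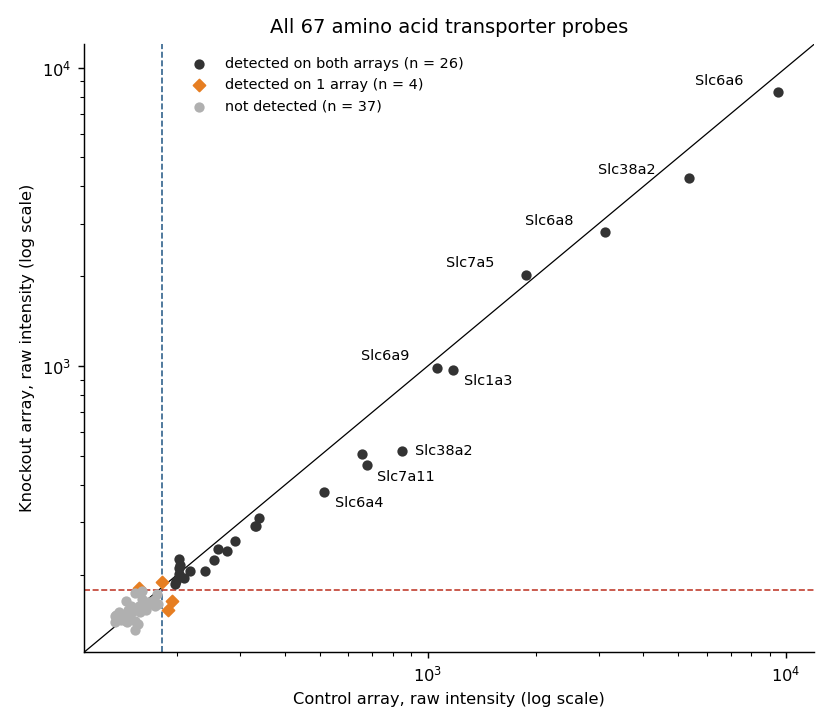
Raw intensity of each of the 67 probes on the knockout array (vertical axis, log scale) against the control array (horizontal axis, log scale), with detection limits as dashed lines (177.9 and 181.8) and equal intensity as the diagonal. The 37 probes that were not detected crowd the lower left corner, and 10 probes stand over 2 times the limits.

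At least 1.5-fold higher in the knockout array were 2 of the 30 detected probes, Slc6a13 and Slc36a2, which is 6.67% where 3.93% of all 12956 detected probes were. At least 1.5-fold lower were 3, Slc38a2 (probe 3), Slc6a7 and Slc7a3, which is 10% against 4.65% of all detected probes. Both shares lie within 2 probes of the background, and only Slc6a13 and Slc38a2 among the 5 were detected on both arrays. The other 25 probes lay within 1.5-fold. The median log2 fold of the 30 probes was -0.08, against 0.01 over all detected probes, and 18 of the 30 (60%) lay below 0, against 48.6%. In the authors' normalized intensities no member probe reached 1.5-fold in either direction.

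**Figure D2:**
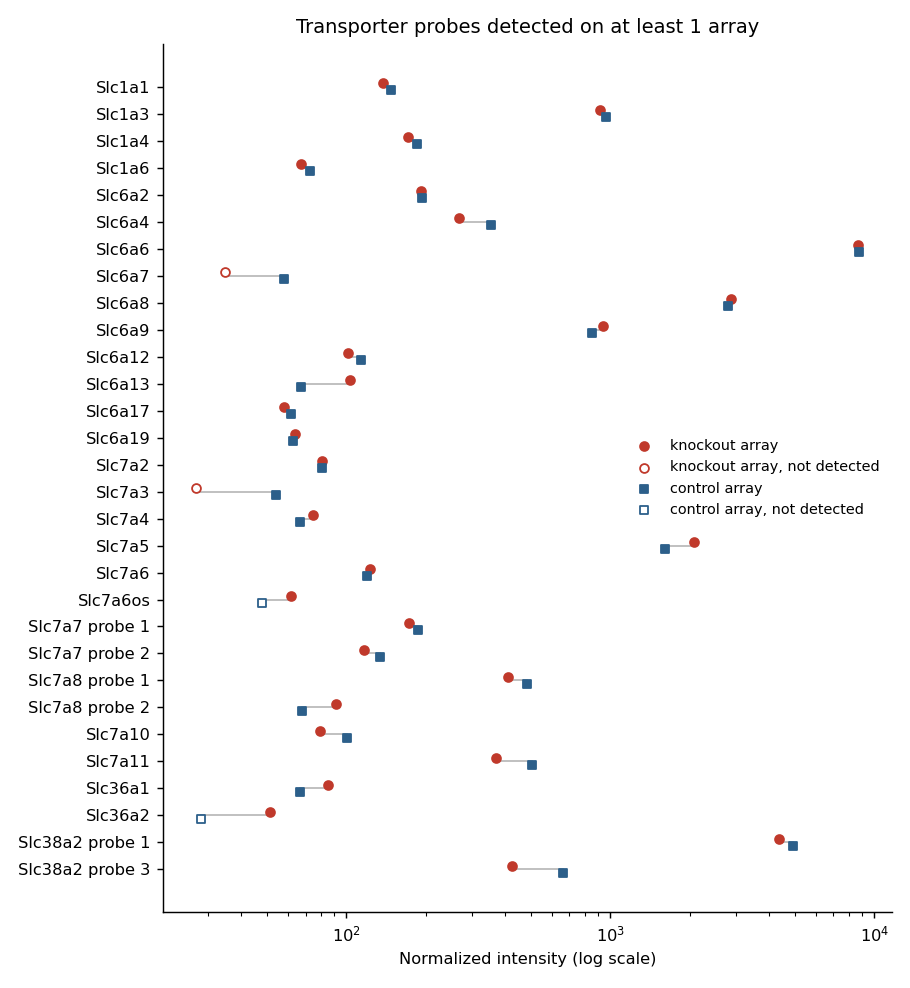
Normalized intensity (log scale) of the 30 probes detected on at least 1 array, with knockout as red circles and control as blue squares; open symbols were not detected on that array. Slc38a2 (probe 3), Slc7a11 and Slc6a4 are lower and Slc7a5 is higher in the knockout array, while Slc6a6 and Slc6a8 lie almost on top of each other.

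Slc3a2 was the only heavy chain among the probes analysed here. Its single probe was not detected on either array, at raw intensities of 173.1 in the knockout and 152.6 in the control, so no fold is given for it. Its light chain Slc7a5 (LAT1), the exchanger of leucine and other large neutral amino acids, was clearly detected. Slc7a5 read 2077 in the knockout array and 1614 in the control array, a log2 fold of 0.36 or 1.29-fold higher, and 1.26-fold in the authors' intensities. It had the highest fold among the 10 brighter probes and still lay within 1.5-fold.

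Slc7a11 (xCT), the light chain that imports cystine in exchange for glutamate, differed the other way. It read 368 in the knockout array and 504 in the control array, 1.37-fold lower in the knockout (log2 fold -0.46), and 1.28-fold lower in the authors' intensities. Under median scaling, which moves the median of all detected probes by -0.11, its fold was -0.59, just past 1.5-fold, and -0.49 relative to that median.

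The remaining light chains showed no common direction. Slc7a8 (LAT2), a second exchanger of large neutral amino acids, was measured by 2 detected probes that disagreed in sign. Probe 1 read 408 in the knockout and 485 in the control (log2 fold -0.25), and probe 2, nearer the detection limit, read 91.6 and 67.7 (0.44). Both probes of Slc7a7 (y+LAT1), an exchanger of cationic for neutral amino acids, lay below 0, at 173 in the knockout and 187 in the control (-0.12) and at 117 and 134 (-0.20). Its relative Slc7a6 (y+LAT2) read 123 in the knockout and 119 in the control (0.04). Slc7a10 (Asc-1), an exchanger of small neutral amino acids that is also known as a surface protein of white adipocytes, read 79.2 in the knockout and 100.3 in the control (-0.34). Of 5 detected adipocyte markers, 4 stood on the same side, below 0, while Cidec stood at 0.22 and Fabp4 was not detected. Intensity summed over all markers of the list was 11422 in the knockout and 15320.4 in the control. Lpl alone made up 8262 and 11813 of these sums. The part of adipocytes in the Slc7a10 value was not tested. Slc7a9, the kidney and gut cystine light chain, was not detected by any of its 3 probes, nor were Slc7a12 and Slc7a13. Slc7a6os passed the limit on the knockout array alone (raw 188.9 in the knockout, 181.3 in the control). Its bound was at least 1.27-fold higher, and its fold in the authors' intensities was 1.06.

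The cationic amino acid transporters, which carry arginine, lysine and ornithine without a heavy chain, were dim. Slc7a1, the widely expressed member, was not detected by either of its 2 probes, whose raw intensities ran from 137.6 to 165.9 over both arrays. Slc7a2, known for arginine supply in activated macrophages, had 1 detected probe of 3, at 80.8 in the knockout and 80.5 in the control (log2 fold 0.00). Slc7a3 was detected by 1 of 2 probes and in the control only, with raw intensities of 152.4 in the knockout and 188.2 in the control. Its fitted log2 fold of -1.01 was the lowest of the 30, but the fold that the detection limit allows is at least 1.10-fold lower. Slc7a4, a relative with no settled substrate, read 74.5 in the knockout and 66.7 in the control (0.16).

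Sodium-coupled neutral transporters of the Slc38a series were represented by Slc38a2 (SNAT2), which takes up alanine, glutamine and other small neutral amino acids and is known to be induced by amino acid shortage. Probe 3 read 422 in the knockout array and 661 in the control array, 1.56-fold lower in the knockout (log2 fold -0.65), and 1.44-fold lower in the authors' intensities. Probe 1, with a raw intensity of 4271.6 in the knockout and 5350.4 in the control, gave a much smaller difference in the same direction, at 4374 and 4923 normalized (-0.17). Probe 2 was not detected. The 2 detected probes of Slc38a2 thus gave log2 folds of -0.65 and -0.17, a range of 0.48. Without replicates these readings do not bound the fold of the gene. Slc38a1, Slc38a3, Slc38a4 and Slc38a5 were not detected.

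Carriers of the Slc1a series were close on the 2 arrays, and all 4 detected probes lay slightly below 0, from -0.11 to -0.08. Slc1a3 (GLAST), a sodium-coupled glutamate and aspartate transporter best known from glia, read 914 in the knockout and 966 in the control (-0.08). Slc1a1 (EAAT3), which also carries cysteine, read 137 in the knockout and 148 in the control (-0.11). Slc1a4 (ASCT1), an exchanger of alanine, serine and cysteine, read 171 and 185 (-0.11), and Slc1a6, a glutamate transporter of cerebellar neurons, 67.5 and 72.6 (-0.10), knockout value first in each. Slc1a5 (ASCT2), the neutral exchanger best known for glutamine, was not detected by either of its 2 probes, and neither were Slc1a2 and Slc1a7.

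The Slc6a series couples transport to sodium and chloride, and it serves neurotransmitters and osmolytes as well as amino acids. Its 3 carriers of taurine, creatine and glycine were well above the limit and differed by at most 0.13 on the log2 scale. Slc6a6, the taurine transporter, read 8692 in the knockout and 8781 in the control (-0.01, with the sign turned, at 0.00, relative to all probes under median scaling). Slc6a8, the creatine transporter, read 2872 in the knockout and 2798 in the control (0.04), and Slc6a9 (GlyT1), the glycine transporter, read 934 and 855 (0.13).

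Slc6a4, the serotonin transporter, known in platelets and mast cells as well as in neurons, read 268 in the knockout array and 354 in the control array. It was 1.32-fold lower in the knockout (log2 fold -0.40) and 1.23-fold lower in the authors' intensities. Mast cell markers stood at a summed intensity of 7350.2 in the knockout and 8051 in the control, with 3 of 5 detected ones above 0 and none at 1.5-fold; their part in this value was not tested. Slc6a2, the noradrenaline transporter, had 1 detected probe of 3, at 192 in the knockout and 194 in the control (-0.02), and the dopamine transporter Slc6a3 was not detected.

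Among the carriers of gamma-aminobutyrate (GABA) and betaine, Slc6a13 (GAT2) read 103 in the knockout and 67.3 in the control, 1.53-fold higher in the knockout (log2 fold 0.61). This probe lay close to background, with raw intensities of 226.0 in the knockout and 202.5 in the control, and in the authors' intensities, which keep the background, the fold was 1.16. Slc6a12 (BGT1), the betaine and GABA transporter, read 101 in the knockout and 113 in the control (-0.16). Slc6a7, the brain proline transporter, was detected in the control only (raw 163.4 in the knockout, 192.8 in the control), at least 1.18-fold lower in the knockout. Slc6a17 (58.2 in the knockout, 61.8 in the control, -0.09), a transporter of synaptic vesicles, and Slc6a19 (63.7 and 62.9, 0.02), the neutral carrier of kidney and gut, were just above the limit and alike on both arrays. Slc6a5, Slc6a14, Slc6a15, Slc6a18 and Slc6a20 were not detected.

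In the Slc36a series of proton-coupled carriers, Slc36a1 (PAT1), which releases small amino acids from lysosomes, read 84.8 in the knockout and 66.8 in the control (0.35, 1.08-fold in the authors' intensities). Slc36a2 (PAT2) was detected in the knockout only (raw 180.0 in the knockout, 156.3 in the control). Its fitted log2 fold of 0.87 was the highest of the 30, and the bound is at least 1.06-fold higher. Slc36a3 was not detected, nor were the uniporter Slc43a2 (LAT4) and Slc43a3. The 4 members detected on a single array, Slc36a2, Slc7a6os, Slc6a7 and Slc7a3, therefore differed by bounds of 1.06-fold to 1.27-fold.

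**Figure D3:**
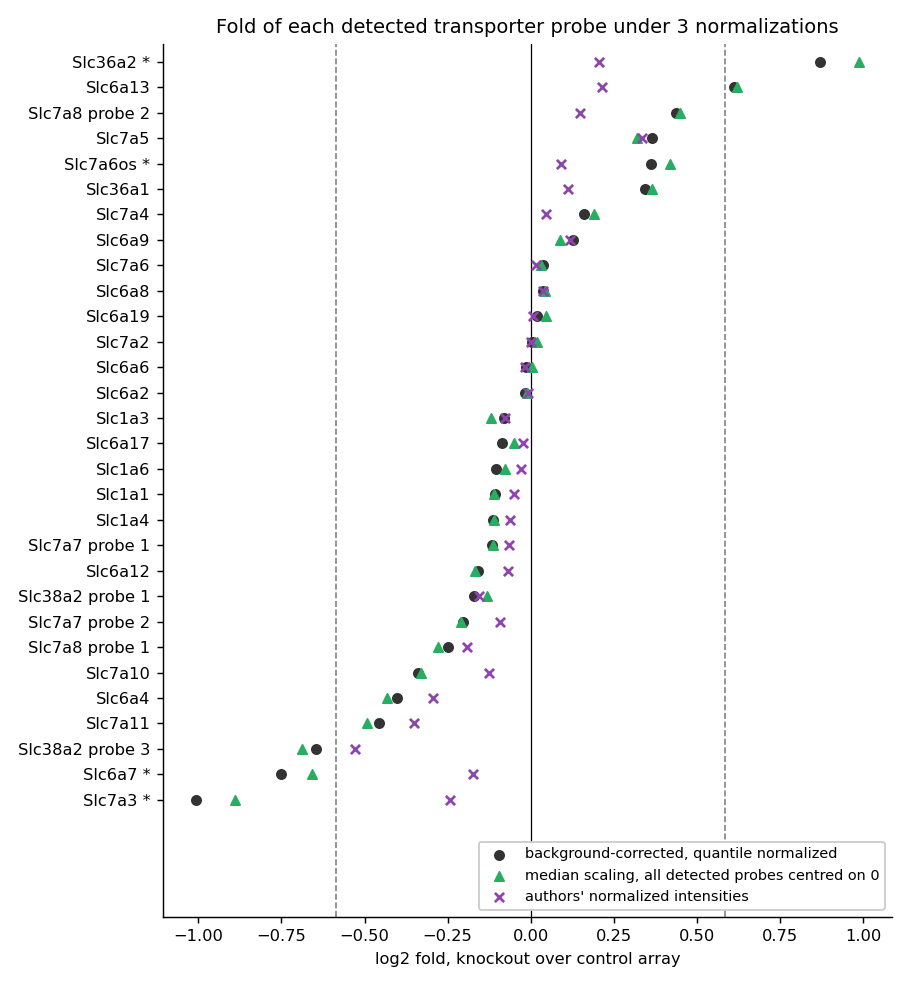
log2 fold, knockout over control, of the 30 detected probes (horizontal axis) after background correction and quantile normalization (black circles), after median scaling with all detected probes centred on 0 (green triangles) and in the authors' normalized intensities (purple crosses). Dashed lines mark 1.5-fold and an asterisk marks detection on 1 array only; no cross passes a dashed line, and the crosses of Slc36a2, Slc6a13, Slc6a7 and Slc7a3 lie far closer to 0 than their circles.

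Taken by brightness, the 10 probes over 2 times the detection limit on both arrays had log2 folds from -0.65 (Slc38a2, probe 3) to 0.36 (Slc7a5), with a median of -0.13 where all 7313 such probes had 0.02. Of these 10, 7 lay below 0 (70.0%, against 46.9% of all such probes). The other 20 detected probes had a median of -0.05, and those of them detected on both arrays ran from -0.34 (Slc7a10) to 0.61 (Slc6a13).

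Other genes of amino acid handling were read by the brightest probe of each gene, in 10 lists that hold 125 detected genes. Of these, 2 were at least 1.5-fold higher (3.51% of all 9705 detected genes were) and 5 at least 1.5-fold lower (4.47%), or 1.60% and 4% of the list genes. In the authors' intensities 0 list genes were 1.5-fold higher and 0 were 1.5-fold lower. Serine, glycine and one-carbon synthesis had all 7 detected members above 0, with a median log2 fold of 0.30 where all detected genes had 0.00, and none at 1.5-fold. The median of this list was 0.13 in the authors' intensities. Shmt2, the mitochondrial serine hydroxymethyltransferase, read 234 in the knockout and 163 in the control (0.52). Phgdh, the first enzyme of serine synthesis, read 208 in the knockout and 148 in the control (0.49), and Aldh1l2, a mitochondrial folate enzyme, 621 and 454 (0.45).

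Genes of the ATF4 response did not share a direction. Of 20 detected, 13 lay above 0 and 7 below, with a median of 0.04. Asns, the asparagine synthetase, read 1885 in the knockout and 1371 in the control (0.46). Atf3, a stress-induced transcription factor, was 1.70-fold lower, at 245 in the knockout and 416 in the control (-0.76), and Eif2ak2, the interferon-induced kinase PKR, stood at -0.46. Atf4 itself read 2600.2 in the knockout and 2514 in the control (0.05), and Trib3, another of its targets, 0.11; these 2 genes were chosen after their values were seen.

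The cystine and glutathione list also holds Nfe2l2, Nqo1, Hmox1 and Mat2a, so its median does not measure the use of imported cystine. It had the lowest median of the metabolic lists, -0.23, with 7 of 11 detected genes below 0 and 2 at least 1.5-fold lower. These were gamma-glutamyltransferases of the Ggt series, Ggt5 (180.0 in the knockout, 290.3 in the control, -0.69) and Ggt6 (51.6 and 80.1, -0.63), at -0.44 and -0.19 in the authors' intensities, and Cbs, the cystathionine beta-synthase, stood at -0.45. The glutathione-making enzymes Gclm (0.07) and Gss (0.04), chosen after their values were seen, hardly differed, and Gclc was not detected.

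The other lists had medians from -0.22 to 0.10. Cytosolic aminoacyl-tRNA synthetases, which charge tRNAs with the imported amino acids, lay above 0 in 12 of 17 (median 0.10), led by Vars (0.52), Mars1 (0.41) and Sars (0.40). Proline and arginine genes lay above 0 in 9 of 13 (0.08), with Aldh18a1 at 0.36. Nos2, the inducible nitric oxide synthase, was above the limit on the knockout array alone (counted above by its fitted fold). Its bound was at least 1.46-fold higher, and its log2 fold in the authors' intensities was 0.22. Branched-chain catabolism (4 of 8 above 0, median 0.07) was led by Bcat1, the cytosolic transaminase of leucine, at 0.50, and glutamine and glutamate genes (4 of 7 above 0, median 0.05) by Got1, also at 0.50. Amino acid sensors of mTORC1 lay above 0 in 14 of 24 (median 0.02). Among these, Fnip1, a folliculin partner, was 1.51-fold lower (1023 in the knockout, 1539.9 in the control), and Rragd, a Rag GTPase, stood at 0.44. Of 15 detected carriers outside the 7 series, 9 lay above 0 (median 0.06). The peptide transporter Slc15a2 was 2.06-fold lower (63.8 in the knockout, 131.7 in the control), though 1.32-fold in the authors' intensities, and its lysosomal relative Slc15a4 was higher (0.53). The GABA, glycine and monoamine list had 4 detected genes, 3 below 0 (median -0.22). Ddc, which makes serotonin and dopamine, was above the limit on the knockout array alone. Its bound was at least 1.78-fold higher, and its log2 fold in the authors' intensities, which keep the background, was 0.29.

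**Figure D4:**
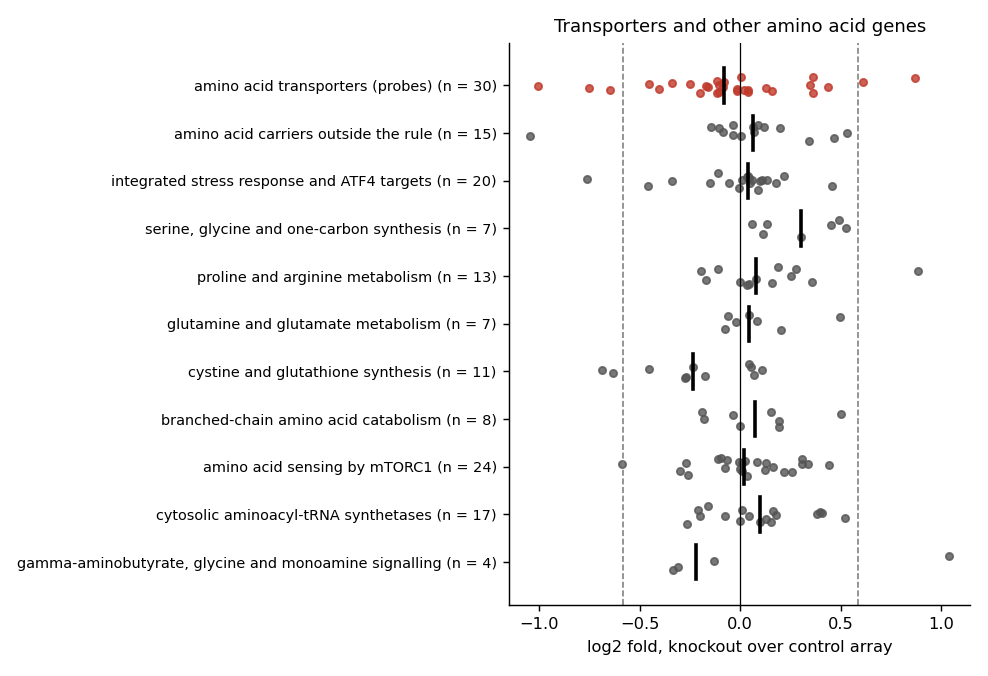
log2 fold, knockout over control (horizontal axis), of the 30 detected transporter probes (red) and of the detected genes of 10 other lists of amino acid genes (grey), with the list medians as black bars and 1.5-fold as dashed lines. The serine list lies wholly above 0 (median 0.30) and the cystine and glutathione list is centred below it (-0.23).

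The targeted gene, Ctnnb1, read 2344 in the knockout and 2325 in the control with its brighter probe (0.01) and 932 and 1048 with the other (-0.17). The labels do not place these probes relative to the deleted exons, and cells outside the K14 lineage keep the gene. The values therefore do not check the labels. Marker levels of several cell types differed between the 2 arrays. Keratinocyte markers were all detected (9 of 9), with a summed intensity of 140977 in the knockout and 136950.0 in the control. Slow skeletal muscle markers were at least 1.5-fold higher as fitted in 6 of 6 (summed 15642 in the knockout, 1962 in the control). Of these, Tnni1 and Myh7 were detected on the knockout array alone, with bounds of at least 2.87-fold and 1.11-fold higher. The 3 detected red blood cell markers were lower (6306 in the knockout, 21833 in the control). Macrophage markers lay below 0 in 7 of 7 (28269 in the knockout, 36280.1 in the control) and those of Langerhans and dendritic cells in 5 of 5 (16683 and 20744). The 3 detected melanocyte markers lay below 0, all past 1.5-fold as fitted (median -1.03, or -0.34 in the authors' intensities). Their list summed to 259 in the knockout and 479 in the control, with Tyr and Tyrp1 not detected. Mlana and Pmel were detected on the control array alone, with bounds of at least 1.76-fold and 1.28-fold lower in the knockout. Endothelial markers lay above 0 in 5 of 5 (5220.1 in the knockout, 4693 in the control, Kdr not detected). Neutrophil markers lay above 0 in 7 of 7 (51954 in the knockout, 43453 in the control, Ngp not detected). Fewer cells of a type and less RNA per cell cannot be told apart in whole wounds, and the part of these differences in the carrier values, Slc7a11 and Slc38a2 included, was not tested.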

How the data were processed

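Total RNA of wounded skin was hybridised to Illumina bead arrays, 1 knockout and 1 control, each of RNA from 3 mice per the series' design text. The authors deposited mean bead intensity without normalization, a table of their own normalized intensity (method not given in the sources used here, background kept) and a detection p-value per probe; GenomeStudio 2011.1 is named in the submitters' processing notes. Row by row, the deposited p-values were unrelated to intensity (Spearman's rho across probes, -0.000406 in the knockout and 0.00244 in the control). They were therefore re-assigned within each array by rank, the smallest to the brightest probe.

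Raw intensities were normalized with the neqc steps of limma 3.58.1 in R 4.3.3: normexp background from negative controls inferred from these p-values, an offset of 16, quantile normalization and log2. Folds of dim probes are pulled toward 0 by the offset, and a shift of all genes would not be seen after quantile normalization. For a probe detected on 1 array, the fold is a bound: the dim side is set to the detection limit there, or to its measured value if that is higher. The bound makes no allowance for measurement error. All 67 member probes matched a RefSeq gene. Promoter sequences are RefSeq's. The number of arrays limits the precision, and no test was run. The steps were tested on simulated data in which set folds were given to bright probes only. The recovery of folds in dim probes was not tested. Members, lists and thresholds were chosen with earlier results of these data known. Named are the detected members, and from each list up to 3 detected genes with the widest folds. Some genes are not reported here. Alternatives were median scaling, no background correction, the authors' intensities, an offset of 50 and other detection filters.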

Additional observations from a re-analysis of the deposited data

How the results depend on the processing

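Counts at 1.5-fold rest on the handling of background. Against 2 member probes higher and 3 lower, there were 0 and 0 in the authors' intensities and 0 and 0 without background correction, 0 and 1 with an offset of 50, and 1 and 1 among probes detected on both arrays. With probes detected on 1 array at their bounds, a setting chosen after seeing the data, there were 1 and 1. Median scaling gave 1 higher and 4 lower, a detection p under 0.05 or no detection filter gave 4 and 3, and genes by their brightest probe gave 2 and 2. The median log2 fold of the members stayed below 0 in all 11 alternatives, from -0.16 (median scaling) to -0.01 (no filter). In settings that keep the sign of all 30 probes it could not do otherwise, since 18 of them lay below 0. The sign of a fold after quantile normalization depends only on the ranks of the probe on the 2 arrays. Background steps do not change these ranks. That all 30 detected probes kept their sign with an offset of 50 and with no background step is therefore no check. They also kept it in the deposited normalized values, whose method is not given. Under median scaling 25 kept their sign (29 relative to all probes). No paired analysis was possible because each group has 1 array.

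The dim signal limits most members: 20 of the 30 detected probes lay within 2 times the detection limit on an array.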

Other observations

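Transporters of the same series also stood on the array under older symbols, which the choice by symbol leaves out. Updated through RefSeq, these were 16 probes of 11 genes, among them a further, undetected probe of Slc43a2, and 4 of the 16 were detected. Slc38a9, the lysosomal arginine sensor that signals to mTORC1, had 2 detected probes of 3 that disagreed in sign, at raw intensities of 358.3 in the knockout and 494.1 in the control (log2 fold -0.44) and of 236.5 and 245.3 (0.10). Slc38a7, a lysosomal glutamine exporter, read 478.3 in the knockout and 551.3 in the control (-0.03), and Slc38a10 read 309.0 and 300.8 (0.27). None of the 4 reached 1.5-fold, and with members taken by updated symbols the counts were again 2 higher and 3 lower.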
